A study of Rattus norvegicus with 6 samples.

Results

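The thermogenic genes of brown and beige fat were followed here in the mesenterial adipose tissue of newborn rats. They comprise 10 genes: the uncoupling proteins Ucp1, Ucp2 and Ucp3, the coactivators Ppargc1a and Ppargc1b, the brown fat regulator Prdm16, the deiodinase Dio2, the lipid droplet gene Cidea, the elongase Elovl3 and the carnitine palmitoyltransferase Cpt1b. Every probe set that the platform annotation assigns to 1 of these symbols and to no other was kept, which gave 14 of the 31042 probe sets on the array. A probe set is a group of short oligonucleotides that together report 1 transcript. All rats were wildtype Sprague-Dawley newborns, and the groups differ by what their dams ate. In the deficient group (3 arrays) the dams' feed held 0 IU of vitamin D per kg, and in the adequate group (3 arrays) it held 1000 IU per kg. The labels give neither sex nor litter, and do not say whether an array holds 1 animal or a pool. The p-values therefore measure the spread between these samples, which may be technical.

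Brown fat makes heat by letting protons leak back across the inner mitochondrial membrane through UCP1, so that fuel is burned without making ATP. Cold acts through noradrenaline, beta-adrenergic receptors and cyclic AMP, which raises lipolysis and the transcription of Ucp1 and of the coactivator PGC-1 alpha. Beige cells are fat cells within white depots that can take up the same programme. In rodents the perinatal period is one in which brown fat is active, whereas mesenteric fat is classed as a visceral white depot.

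Of the 14 probe sets, 7 were bright enough to test. The cutoff was the 40th percentile of the mean log2 signal over all 6 arrays, a signal of 88.2 intensity units. Those 7 represent 5 genes: Ppargc1b, Ppargc1a (2 of its 3 probe sets), Prdm16 (2 of 2), Ucp2 and Cpt1b. The other 7 report Ucp1, Ucp3 (2 of 2), Dio2, Cidea, Elovl3 and the third probe set of Ppargc1a, and are described below without a test. One Prdm16 probe set passed only through the deficient group, where it was brighter. No detection calls were used here, so a dim reading does not show that a gene is off.

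The deficient group was split. In a principal component analysis of the tested probe sets, deficient arrays 1 and 2 scored 43.1 and 46.4 on the leading component (49.5% of the variance), against -20.3 for deficient array 3 and -26.2 to -18.5 for the adequate arrays. Their beta-actin 3′ over 5′ ratios, a measure of RNA integrity and labelling, were 7.56 and 6.80, against 2.35 on deficient array 3 and 2.39 to 4.81 on the adequate arrays. Their signals for bacterial transcripts, which are spiked into each hybridisation as controls, were 7.11 and 9.50 times the adequate mean, and 0.936 times on deficient array 3. Values for deficient array 3 alone, set against the 3 adequate arrays, are therefore given for the tested thermogenic probe sets and the gene lists, and where a named gene moved with this division.

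With all 6 arrays, 0 of the 7 tested thermogenic probe sets had an adjusted p under 0.05 by limma, and 0 of all 18625 tested probe sets did (0%). At an unadjusted p under 0.05 there were 2 of the 7, Ppargc1b higher and Ucp2 lower in the deficient group. Over all tested probe sets that share was 14.2% (6.03% higher and 8.18% lower). The groups did not overlap for 1 of the 7, Ppargc1b, which read higher. Among all tested probe sets 17.4% did not overlap (6.55% higher and 10.8% lower in the deficient group). Represented by its brightest tested probe set, a gene read higher in the deficient group in 3 of 5 cases and lower in 2, and 44.7% of all tested probe sets read higher. The median log2 change was 0.066 for the 5 genes, against -0.049 over all tested probe sets, and with deficient array 3 alone it was -0.22 for the 5 genes. In bulk tissue, fewer cells of a type and less RNA per cell cannot be told apart.

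**Figure D1:**
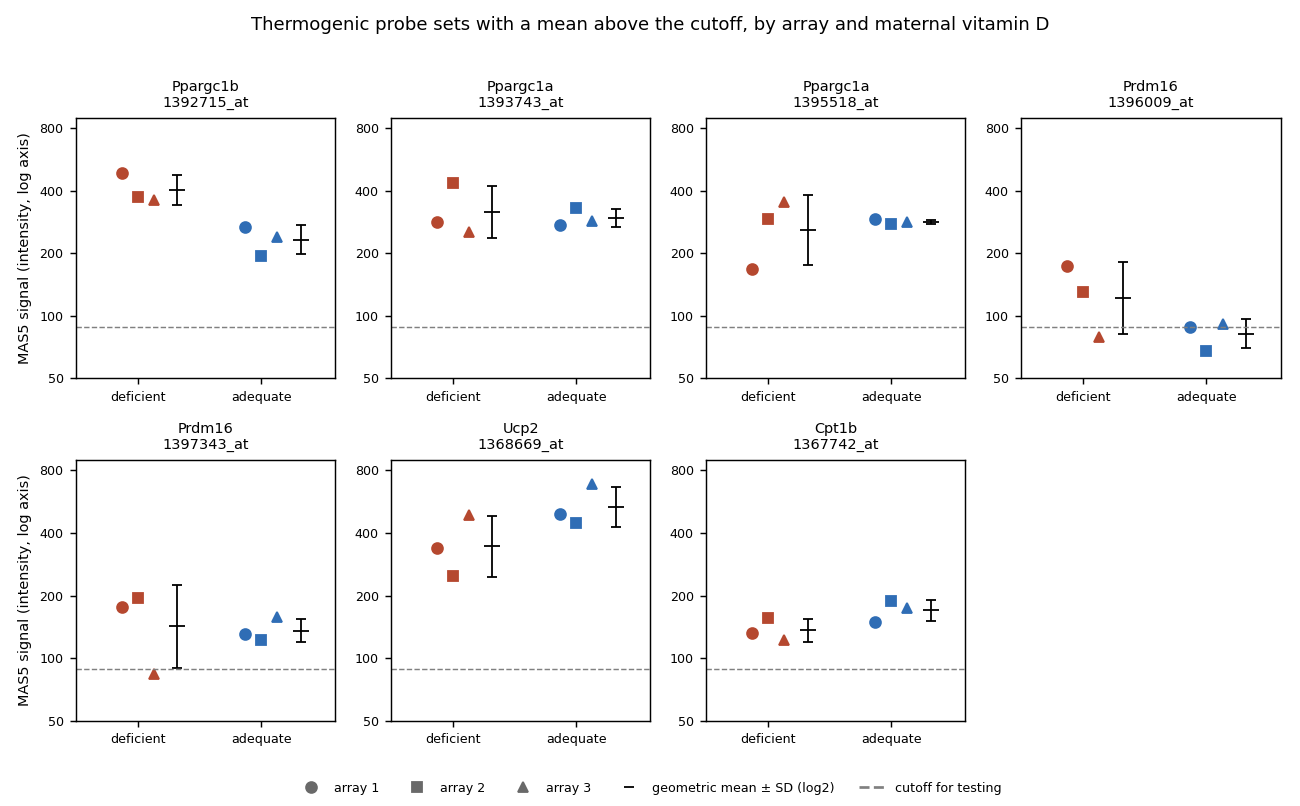
MAS5 signal on a log axis for the 7 tested probe sets, with the deficient arrays left and the adequate arrays right in each panel. Points are single arrays, bars give the geometric mean and the SD on the log2 scale (n = 3 each), and the dashed line is the cutoff for testing at 88.2. All 3 deficient arrays lie above all 3 adequate arrays for Ppargc1b, and the groups overlap in the other 6 panels.

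Ppargc1b encodes PGC-1 beta, a coactivator of mitochondrial and lipid genes that is related to PGC-1 alpha. Its probe set (1392715_at) read 488, 374 and 362 intensity units on the deficient arrays, against 268, 195 and 240 on the adequate arrays. The lowest deficient array lay above the highest adequate array. The mean log2 signal was 8.66 ± 0.24 in the deficient and 7.86 ± 0.23 in the adequate group (SD, n = 3 each). The log2 change was 0.80 ± 0.21 (SE), a fold of 1.74 with a 95% interval of 1.25 to 2.42. The limma p was 0.00378 before and 0.344 after adjustment over all tested probe sets. With deficient array 3 alone the log2 change was 0.64. Without that array it was 0.88 ± 0.22, and the adjusted limma p of 0.0243 then passed. In that fit 3614 of all 18625 tested probe sets passed, so the pass was not particular to Ppargc1b.

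Ppargc1a encodes PGC-1 alpha, which in brown fat is induced by cold through cyclic AMP and coactivates the transcription of Ucp1. Its brighter probe set (1393743_at) read 284, 436 and 254 on the deficient arrays, against 272, 331 and 287 on the adequate arrays. Deficient array 2 was high, and the other 2 deficient arrays lay near the adequate ones. The log2 change was 0.09 ± 0.24 (SE), with a 95% interval of -0.44 to 0.62 and an adjusted limma p of 0.864. The other tested probe set (1395518_at) read 168, 294 and 352 on the deficient arrays, against 291, 278 and 282 on the adequate arrays. Here deficient array 1 was low and deficient array 3 high, so that the deficient values surrounded a narrow adequate range. Its log2 change was -0.13 ± 0.27 (SE), with a 95% interval of -0.73 to 0.47 and an adjusted limma p of 0.827. The 2 probe sets thus had opposite signs, and with deficient array 3 alone both signs turned, to -0.22 and 0.31. As folds, the 95% intervals ran from 0.739 to 1.54 and from 0.601 to 1.39. The third probe set (1370089_at) read 40.1, 89.5 and 92.7 on the deficient arrays, against 85.7, 28.0 and 94.1 on the adequate arrays, with 3 of the 6 arrays above the cutoff.

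Windows of 250 bases before the transcription start that the promoter table uses are shown for both coactivator genes, since the diet readings of the PGC-1 pair are the ones compared next. Sequences here are from RefSeq's promoter table for the GRCr8 rat assembly, 5′ to 3′ on the gene's own strand, and that table matched 9 of the 10 genes by symbol. The windows are chr18:57131467-57131716 (minus strand) and chr14:63634058-63634307 (plus strand). The Ppargc1b window lies directly before the annotated gene. The Ppargc1a window lies inside the annotated gene, which spans chr14:63073505-63729215, so it precedes an internal start and not the outermost one. Capitals mark the cyclic AMP response half-site TGACG, or CGTCA on the other strand.
Ppargc1b: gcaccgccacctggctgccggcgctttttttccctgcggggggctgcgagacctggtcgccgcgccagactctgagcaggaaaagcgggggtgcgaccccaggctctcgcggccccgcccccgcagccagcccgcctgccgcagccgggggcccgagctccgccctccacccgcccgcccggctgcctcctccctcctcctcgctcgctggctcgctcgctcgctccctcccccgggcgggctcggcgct
Ppargc1a: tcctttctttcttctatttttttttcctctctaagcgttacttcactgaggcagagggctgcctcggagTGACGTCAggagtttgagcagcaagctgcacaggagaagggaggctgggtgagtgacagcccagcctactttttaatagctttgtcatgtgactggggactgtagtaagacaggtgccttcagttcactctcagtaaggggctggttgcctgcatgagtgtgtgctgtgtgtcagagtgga
The Ppargc1a window holds the full element TGACGTCA, which reads the same on both strands and contains both half-sites, from base -181 to -174 counted back from that internal start. That element is in 1.59% of the 33469 promoter windows of this length. The half-site is in 18.2% of them, and no match stands in the Ppargc1b window. The Ppargc1b window is 78.0% G and C, against a median of 51.2% over all windows. Such matches describe the letters of a window and are not evidence of binding.

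Whether Ppargc1b moved apart from its relatives was examined by the ratio of probe sets within each array, a comparison chosen after the values were seen. The log2 ratio of Ppargc1b to the brighter Ppargc1a probe set was 0.71 higher in the deficient group. The exact two-sided permutation p was 0.2, where 0.1 is the smallest that 3 against 3 arrays allow. For Pprc1, which encodes the third coactivator of the family, the log2 ratio was 0.98 higher, with an exact permutation p of 0.2. Both p were 0.2 after adjustment over the 2 ratios. With deficient array 3 alone the differences were 0.86 for Ppargc1a and 0.29 for Pprc1, and the Pprc1 difference was 0.41 once the hybridisation controls were a covariate. Pprc1 itself read 467, 550 and 881 on the deficient arrays, against 781, 818 and 521 on the adequate arrays. Its groups overlapped, and deficient array 3 was the highest of the 6.

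Prdm16 encodes a zinc finger protein that directs precursor cells to the brown fat fate together with PGC-1 alpha and C/EBP beta. One probe set (1396009_at) read 174, 130 and 79.4 on the deficient arrays, against 88.6, 68.1 and 91.6 on the adequate arrays. Deficient arrays 1 and 2 were above every adequate array and deficient array 3 lay among them. The log2 change was 0.57 ± 0.32 (SE) with an adjusted limma p of 0.406, and the adequate mean of 6.36 in log2 signal lay under the cutoff of 6.46. The other probe set (1397343_at) read 176, 194 and 83.9 on the deficient arrays, against 130, 122 and 157 on the adequate arrays. It had the same arrangement, with deficient array 3 now the lowest of all 6. Its log2 change was 0.07 ± 0.33 (SE), with a 95% interval of -0.66 to 0.80 and an adjusted limma p of 0.933. With deficient array 3 alone the changes were -0.049 and -0.69, so the higher readings rest on deficient arrays 1 and 2.

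**Figure D2:**
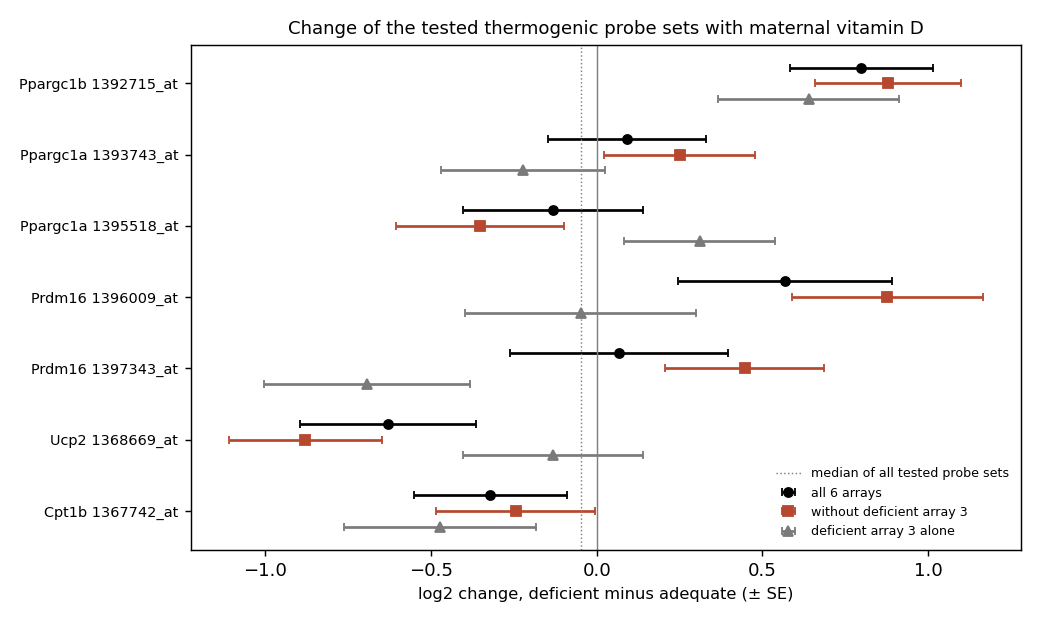
Log2 change, deficient minus adequate, with its SE for each of the 7 tested probe sets, for all 6 arrays, without deficient array 3 and with deficient array 3 alone. In the last of these the SE holds no spread between deficient samples, since a single array stands for that group. The dotted line is the median of all tested probe sets, -0.049. Ppargc1b stays between 0.64 and 0.88 and Ucp2 lies between -0.88 and -0.13, while both Ppargc1a and both Prdm16 probe sets change sign.

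Ucp2 encodes an uncoupling protein homologue of the mitochondrial inner membrane that is found in many tissues and is abundant in immune cells. It read 339, 249 and 487 on the deficient arrays, against 493, 449 and 688 on the adequate arrays. Deficient arrays 1 and 2 were lower than every adequate array, and deficient array 3 lay within the adequate range. The mean log2 signal was 8.43 ± 0.49 in the deficient and 9.06 ± 0.32 in the adequate group (SD, n = 3 each). The log2 change was -0.63 ± 0.27 (SE), a fold of 0.646 with a 95% interval of 0.429 to 0.974. The limma p was 0.0393 before and 0.344 after adjustment. With deficient array 3 alone the change was -0.13, and with the hybridisation controls as a covariate it was -0.16 ± 0.28. Without deficient array 3 it was -0.88 ± 0.23, with an adjusted limma p of 0.0281, in the fit where 3614 of all 18625 tested probe sets passed.

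Immune cell markers were, like Ucp2, lowest on deficient arrays 1 and 2. This was not particular to immune cells. The mean log2 signal of mature adipocyte markers, relative to the adequate mean, was -0.23, -0.29 and 0.05 on deficient arrays 1 to 3. For nerve markers it was -0.27, -0.49 and 0.05. Skeletal muscle, heart muscle and liver and gut markers did not have deficient arrays 1 and 2 as their lowest. Of 13 macrophage markers 13 were tested and 12 were lower, and their mean log2 signal relative to the adequate mean was -0.63 and -0.51 on deficient arrays 1 and 2, 0.01 on deficient array 3 and -0.09 to 0.08 on the adequate arrays. Their summed signal was 13074 to 18522 on the deficient arrays and 17234 to 20792 on the adequate arrays. Of 9 lymphocyte markers with a probe set 7 were tested and 7 were lower, with means of -0.86, -1.32 and -0.22 on deficient arrays 1 to 3 and -0.57 to 0.31 on the adequate arrays. The summed signal of all 9, tested or not, was 3091 to 4750 on the deficient arrays and 3995 to 6685 on the adequate arrays. Among the defining T cell genes Cd3e read 80.2, 16.1 and 137 on the deficient arrays, against 260, 86.9 and 306 on the adequate arrays. These groups overlapped, and Cd3e passed the filter only through the adequate group. It is among the 7 tested, so the count and the means of lymphocyte markers include it. The log2 changes of the 7 ran from -1.76 for Cd3e to -0.28. No marker was listed at 0, and the lymphocyte genes below the cutoff were Cd2 and Cd79b. Liver and gut markers were, like Ucp2, highest on adequate array 3. All 5 tested were lower in the deficient group, with a median log2 change of -0.52, and Fabp1, Fabp2 and Vil1 were below the cutoff. Their mean log2 signal relative to the adequate mean was -0.28, -0.74 and -0.65 on deficient arrays 1 to 3, against -0.48, -0.44 and 0.92 on adequate arrays 1 to 3. The summed signal of all 8 liver and gut markers, tested or not, was 1637 to 2992 on the deficient arrays. It was 2043 to 6132 on the adequate arrays. The part of immune, fat, nerve, liver or gut cells in the Ucp2 readings was not tested.

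**Figure D3:**
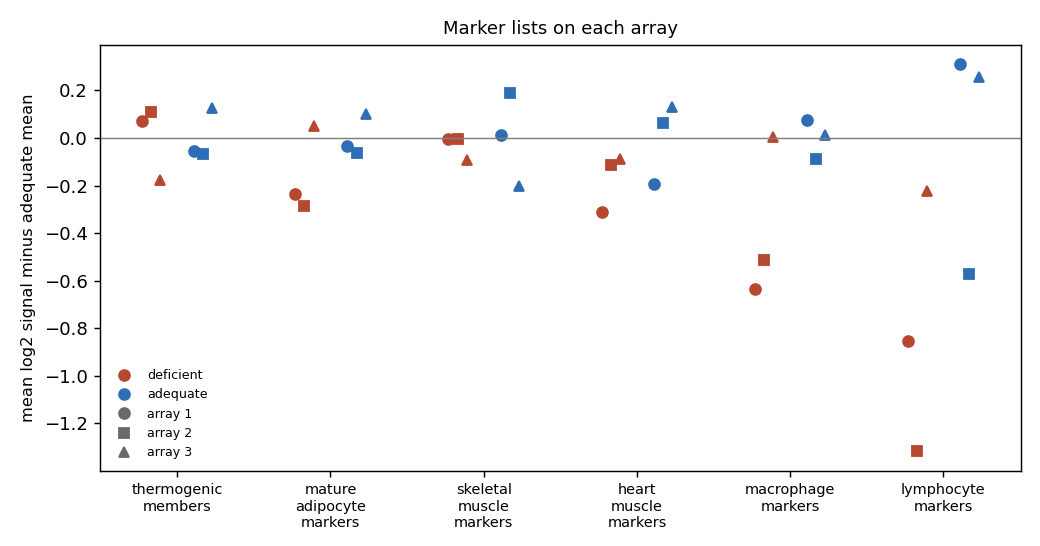
Mean log2 signal of the tested genes of 6 lists on each array, minus the mean of the adequate arrays, with deficient arrays left of adequate arrays. Deficient arrays 1 and 2 are lowest for macrophage markers (-0.63 and -0.51), lymphocyte markers (-0.86 and -1.32) and mature adipocyte markers (-0.23 and -0.29). Adequate array 2 is at -0.57 for lymphocyte markers, a list that includes Cd3e, which passed the filter only through the adequate group. The thermogenic genes lie between -0.18 and 0.12 on all 6 arrays, a mean over genes that moved in opposite directions (Ppargc1b 0.80, Ucp2 -0.63).

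Ucp3, expressed mainly in skeletal muscle and brown fat, is the neighbour of Ucp2 on chromosome 1, with 10479 bases and 0 annotated genes between them in GRCr8. Its probe set 1387681_at read 7.06, 26.2 and 40.8 on the deficient arrays, against 51.0, 43.3 and 59.9 on the adequate arrays. All deficient arrays were below all adequate arrays here. Its probe set 1382958_at read 27.1, 63.5 and 46.5 on the deficient arrays, against 44.1, 42.9 and 54.5 on the adequate arrays, and these groups overlapped. Both probe sets were under the cutoff on every array, so no fold is given for Ucp3, and its probe sets did not show the same arrangement. Ucp1, the uncoupling protein that defines brown fat, read 28.2, 1.85 and 22.6 on the deficient arrays, against 12.2, 23.9 and 9.78 on the adequate arrays. The groups overlapped and no array reached the cutoff. Its highest array stood 15.3-fold above its lowest, a spread set by single dim readings.

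The matching windows of Ucp2, the uncoupling protein gene with the lower readings, and of Ucp1, the defining gene of the programme, are chr1:164251123-164251372 (plus strand) and chr19:41721422-41721671 (minus strand) in GRCr8. Capitals again mark the cyclic AMP response half-site.
Ucp2: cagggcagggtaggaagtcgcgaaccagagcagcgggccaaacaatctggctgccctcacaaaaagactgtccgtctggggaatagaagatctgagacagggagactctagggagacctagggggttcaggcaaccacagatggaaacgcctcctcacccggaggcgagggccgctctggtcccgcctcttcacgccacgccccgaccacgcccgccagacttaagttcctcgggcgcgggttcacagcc
Ucp1: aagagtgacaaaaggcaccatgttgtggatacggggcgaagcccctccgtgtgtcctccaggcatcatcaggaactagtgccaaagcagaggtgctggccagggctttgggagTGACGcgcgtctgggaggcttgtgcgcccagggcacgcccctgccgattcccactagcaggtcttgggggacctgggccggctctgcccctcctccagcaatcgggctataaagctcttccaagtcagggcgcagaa
The Ucp1 window holds the half-site from base -137 to -133, and no match stands in the Ucp2 window. The nuclear receptor half-site AGGTCA, or TGACCT on the other strand, was found in 1 of the 9 windows, that of Ucp3 (14.1% of all windows). The longer TCAAGGTCA (TGACCTTGA on the other strand), which contains it, was found in 0 of the 9 (0.388% of all windows).

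Dio2, which converts thyroxine to active triiodothyronine within brown fat, read 58.7, 19.0 and 4.23 on the deficient arrays, against 2.18, 2.99 and 20.9 on the adequate arrays. Deficient array 1 was the highest of the 6, and the groups overlapped below the cutoff. Cidea, a lipid droplet protein that in the mouse marks brown and beige adipocytes, read 110, 74.4 and 78.0 on the deficient arrays, against 84.9, 84.5 and 84.5 on the adequate arrays. It lay close to the cutoff throughout, above it on deficient array 1 alone. Elovl3, a very long chain fatty acid elongase that cold induces in mouse brown fat, read 1.88, 0.665 and 10.3 on the deficient arrays, against 2.42, 12.4 and 2.86 on the adequate arrays. Its groups overlapped, and every reading was far under the cutoff.

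**Figure D4:**
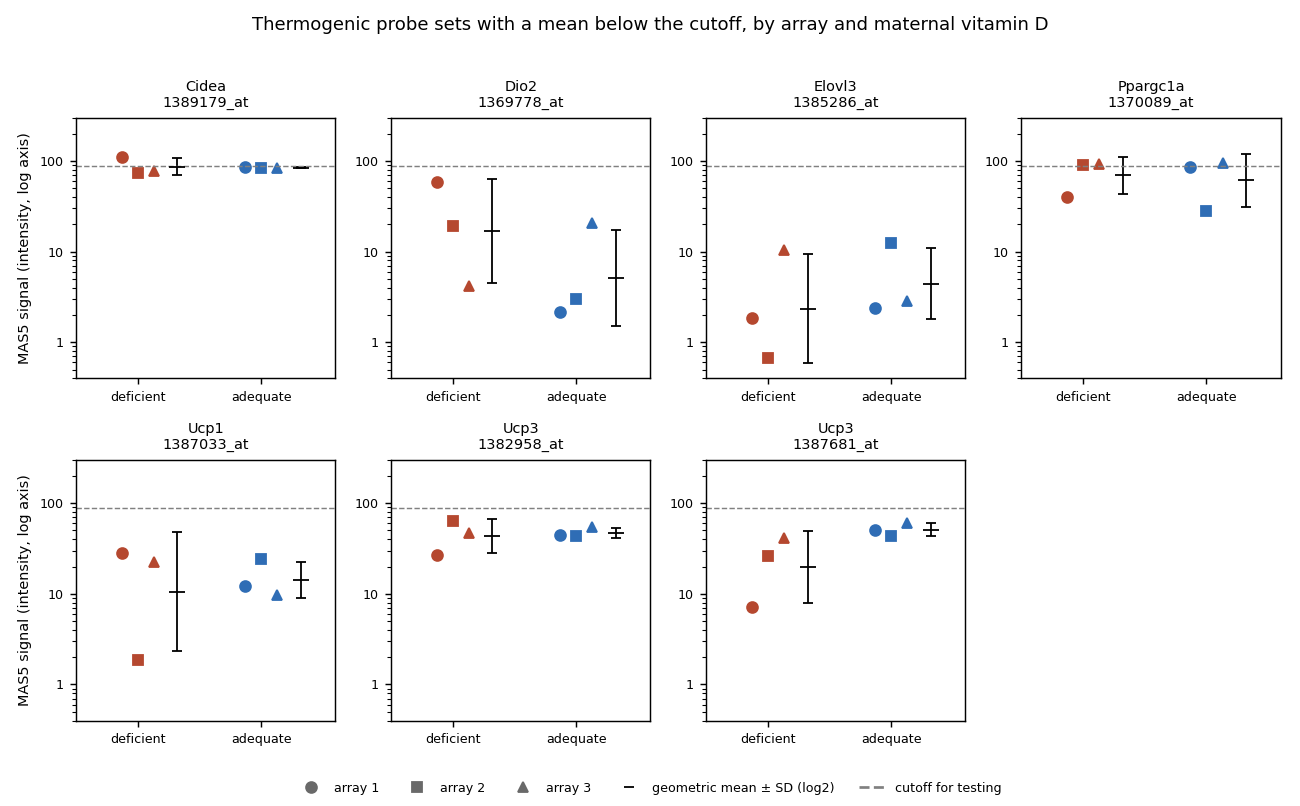
MAS5 signal on a log axis for the 7 thermogenic probe sets with a mean below the cutoff of 88.2 (dashed line), with the deficient arrays left and the adequate arrays right. Points are single arrays and bars the geometric mean with the SD on the log2 scale (n = 3 each). Ucp1, Dio2, Elovl3 and both Ucp3 probe sets are under the line on all 6 arrays, and only Ucp3 1387681_at has no overlap between the groups.

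Cpt1b, the muscle form of the enzyme that loads long chain fatty acids onto carnitine for entry into mitochondria, is also expressed in brown fat. It read 132, 156 and 122 on the deficient arrays, against 149, 188 and 175 on the adequate arrays. Deficient arrays 1 and 3 were below every adequate array, and deficient array 2 was above the lowest of them. The log2 change was -0.32 ± 0.23 (SE), a fold of 0.801 with a 95% interval of 0.562 to 1.14, and the adjusted limma p was 0.493. It was -0.47 with deficient array 3 alone. Cpt1a, the liver form, read 1442, 1095 and 2298 on the deficient arrays, against 1248, 1859 and 1128 on the adequate arrays, with a log2 change of 0.16 ± 0.27 (SE). Deficient array 3 was the highest of the 6, the change was -0.13 without it, and the other Cpt1a probe set was below the cutoff. Skeletal muscle also expresses Cpt1b and Ucp3, and of its markers 3 of 7 tested genes were higher and 4 lower. Over all 11 of its markers with a probe set, tested or not, the summed signal was 2385 to 2438 on the deficient arrays. It was 2154 to 2637 on the adequate arrays, so these ranges overlapped.

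Of the other genes known from brown and beige fat, 21 of 28 had a probe set and 12 were tested. Among those 12, 4 were higher and 8 lower in the deficient group. The median log2 change was -0.18 (-0.060 with deficient array 3 alone), and 0 had an adjusted p under 0.05. Kcnk3, a potassium channel of brown adipocytes, read 80.5, 119 and 130 on the deficient arrays, against 183, 163 and 199 on the adequate arrays, and these groups did not overlap. Of all tested probe sets 17.4% had no overlap, and genes were named in these lists mainly for a small unadjusted limma p. Its log2 change was -0.75 ± 0.26 (SE), with -0.48 for deficient array 3 alone and -0.89 without it. Slc29a1, a nucleoside transporter, had -0.61 ± 0.26, the fatty acid binding protein Fabp3 -0.53 ± 0.24 and the acyl-CoA synthetase Acsl5 -0.20 ± 0.16. For Slc29a1 and Fabp3 deficient array 3 lay within the adequate range, and with it alone the changes were -0.034 and -0.045. Among the 9 dim genes were the cytochrome oxidase subunits Cox7a1 and Cox8b and the brown fat transcription factors Ebf2 and Zic1. Cox7a1 read 102, 75.1 and 85.0 on the deficient arrays, against 58.9, 69.7 and 147 on the adequate arrays. Cox8b was at or under 4.84 on every array.

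The signal that turns the programme on was represented by 12 tested genes of adrenergic and FGF21 signalling, 5 higher and 7 lower, a median log2 change of -0.09 (-0.019 with deficient array 3 alone), and 0 with an adjusted p under 0.05. Adrb3, the beta-adrenergic receptor of fat cells, read 405, 319 and 377 on the deficient arrays, against 361, 320 and 332 on the adequate arrays, a log2 change of 0.12 ± 0.19 (SE). Prkaca, the catalytic subunit of protein kinase A, had -0.58 ± 0.26, Mapk14 (p38) -0.33 ± 0.17, Gnas, the stimulatory G protein, 0.33 ± 0.18, and Creb1 -0.67 ± 0.40. Deficient array 3 lay within the adequate range for Prkaca and Mapk14, and with it alone their changes were -0.11 and -0.0076. Gnas had 0.12 with that array alone, and over all 6 arrays its groups did not overlap. Creb1 had the opposite arrangement, at 327, 380 and 121 on the deficient arrays, against 547, 298 and 372 on the adequate arrays. Deficient array 3 alone was low, and without it the Creb1 change was -0.16. Fgf21, a hormone that can induce the programme, was dim, at 3.91, 6.58 and 22.1 on the deficient arrays and 19.6, 35.6 and 31.6 on the adequate arrays.

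Partners and repressors of PGC-1 and PRDM16 had 17 tested genes, 6 higher and 11 lower, a median log2 change of -0.070 (-0.067 with deficient array 3 alone), and 0 with an adjusted p under 0.05. Esrra, the nuclear receptor through which PGC-1 proteins raise mitochondrial genes, read 215, 467 and 209 on the deficient arrays, against 194, 301 and 222 on the adequate arrays. Deficient array 2 was high and the groups overlapped, at 0.23 ± 0.32 (SE), and at -0.17 with deficient array 3 alone. Gabpa, an activator of nuclear genes for mitochondria, had 0.39 ± 0.20, and Esrrg, a receptor gene related to Esrra, 0.46 ± 0.25. The coactivator Ncoa1 had -0.28 ± 0.14, without overlap between the groups, and the cell cycle regulator Rb1 -0.33 ± 0.19. Deficient array 3 lay within the adequate range for Gabpa, Esrrg and Rb1, with changes of 0.066, 0.045 and -0.093 for that array alone. In thyroid hormone handling, 1 of 3 tested genes was higher, and the median was -0.09 (-0.36 with deficient array 3 alone). Thra, the thyroid hormone receptor alpha gene, read 439, 498 and 555 on the deficient arrays, against 620, 751 and 776 on the adequate arrays, without overlap, and had a log2 change of -0.52 ± 0.18 (SE). With deficient array 3 alone this Thra change was -0.36, and without it -0.61. Another tested Thra probe set had 0.09 ± 0.16. Thrb had 0.16 ± 0.18 and the transporter gene Slc16a10 -0.09 ± 0.31 (0.14 without deficient array 3), and the deiodinase genes Dio1 and Dio3 were below the cutoff.

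Among the carnitine shuttle genes 1 of 7 tested was higher and 6 were lower (median log2 change -0.23, and -0.050 with deficient array 3 alone). Slc25a20, the carnitine-acylcarnitine carrier that takes over the product of Cpt1b, read 452, 289 and 634 on the deficient arrays, against 708, 628 and 703 on the adequate arrays, where deficient array 3 lay within the adequate range. Its log2 change was -0.64 ± 0.26 (SE), and -0.099 with deficient array 3 alone. Acaca, whose product malonyl-CoA inhibits carnitine palmitoyltransferase, had -0.32 ± 0.21, the carnitine acetyltransferase Crat -0.24 ± 0.18 and the brain form Cpt1c -0.23 ± 0.24. The groups did not overlap for Crat. Acaca had 0.10 with deficient array 3 alone, and Cpt1c had -0.096 without it. Of the elongase genes related to Elovl3, 2 of 4 tested were higher and 2 lower, with a median of -0.09 (-0.14 with deficient array 3 alone). Elovl1 had -0.54 ± 0.18, without overlap between the groups, Elovl6 -0.38 ± 0.19, Elovl2 0.46 ± 0.25 and Elovl5 0.20 ± 0.16. With deficient array 3 alone Elovl1 had -0.18 (-0.71 without it), Elovl2 -0.10 and Elovl5 0.010, and Elovl6 had -0.22 without that array. In neither list did a gene have an adjusted p under 0.05.

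Heat can also be made without UCP1, by creatine and calcium cycling, and of those genes 6 of 10 tested were higher and 4 lower, with a median log2 change of 0.03 (0.19 with deficient array 3 alone). Gamt, which makes creatine, read 543, 455 and 643 on the deficient arrays, against 1080, 689 and 920 on the adequate arrays, without overlap, at -0.70 ± 0.21 (SE). Ckmt2, a mitochondrial creatine kinase, read 112, 151 and 91.4 on the deficient arrays, against 63.7, 74.8 and 87.5 on the adequate arrays. These groups did not overlap either, and the adequate mean was under the cutoff. The Ckmt2 log2 change was 0.63 ± 0.29 (SE), with 0.29 for deficient array 3 alone and 0.80 without it. Gamt had -0.45 with that array alone and -0.83 without it. Ckmt1 had -0.30 ± 0.25 and the calcium pump Atp2a2 0.16 ± 0.16. Of the relatives of Cidea and other lipid droplet genes 2 of 5 tested were higher and 3 lower, with a median of -0.56 (-0.18 with deficient array 3 alone). The droplet coat genes Plin3 (-0.57 ± 0.18) and Plin2 (-0.56 ± 0.19) had no overlap between the groups, the lipase inhibitor G0s2 had -0.60 ± 0.38 and the lipase activator Abhd5 0.053 ± 0.17. G0s2 read 451, 554 and 169 on the deficient arrays, against 619, 437 and 547 on the adequate arrays. Deficient array 3 alone was low, and without it the G0s2 change was -0.081. Plin2 had -0.18 and Abhd5 -0.081 with deficient array 3 alone. Cideb and Cidec were below the cutoff. Of all these genes 0 had an adjusted p under 0.05.

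Markers of mature fat cells were measured to check the tissue label. Of 13 with a probe set 8 were tested, 3 higher and 5 lower. The summed signal of all 13, tested or not, was 4410 to 6816 on the deficient arrays and 5669 to 6035 on the adequate arrays. Fabp4, the fatty acid binding protein of adipocytes, read 2065, 1581 and 2821 on the deficient arrays, against 2021, 2451 and 2376 on the adequate arrays, a log2 change of -0.12 ± 0.21 (SE). The defining genes Adipoq, Plin1, Cidec, Lep and Pparg were below the cutoff in both groups. Adipoq read 11.1, 47.8 and 21.1 on the deficient arrays, against 18.0, 26.9 and 22.5 on the adequate arrays. Heart muscle markers had 1 of 3 tested genes higher and 2 lower, and nerve markers likewise 1 of 3 higher and 2 lower. The label of adipose tissue comes from the sample titles. With 8 markers tested and 5 defining genes of the mature fat cell dim, this check did not settle it.

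The genes whose values over the 6 arrays most resembled each tested member were found by the root mean square difference of centred log2 signals. Ppargc1b was closest to Naa15 (0.09) and Ckap4 (0.09), Ucp2 to Fabp3 (0.09) and Ctxn1 (0.09), and Cpt1b to Pck2 (0.07) and Appl2 (0.08). Ppargc1a (1393743_at) was closest to Lrp8 (0.04) and Nufip1 (0.04), and Prdm16 (1397343_at) to Nudcd1 (0.06) and Kpna1 (0.06). The other tested probe sets of Ppargc1a and Prdm16 were not compared in this way. The members themselves departed from their own means by 0.22 to 0.46 on that measure. The comparison ran over 13870 or 13871 probe sets of other named genes, and the 6 arrays share their group and their division into 2 and 4, so it describes these arrays only.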

How the data were processed

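Total RNA was measured on 6 Affymetrix Rat Genome 230 2.0 arrays. The deposited values are linear intensity signals made with MAS5 in Affymetrix Expression Console, per the submitters' processing notes, with versions, background settings and detection calls not given in the sources used here. Each array has a 2% trimmed mean of 500.1 or 500.2, so total RNA differences are scaled out, and dim signals vary widely on a log scale. The 57 control probe sets were used for quality measures, and 31042 signals were log2 transformed without an offset. Of these, 20826 carry 1 gene symbol in the platform annotation, 436 carry several and 9780 carry none. Groups and replicate numbers came from sample titles. The 18625 probe sets at or above the 40th percentile of mean log2 signal were fitted with limma 3.58.1 in R 4.3.3 (lmFit, eBayes with a trend, two-sided, Benjamini-Hochberg adjustment), deficient minus adequate, and the step was tested on simulated data. Intervals are 95%. Array number limits the precision.

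The 16 lists (187 genes), the members being one of them, were chosen with earlier results of these data known. In each pathway list up to 4 tested genes with the smallest unadjusted p were named, beside 16 fixed names and the 2 genes most like each member. In lists a gene is represented by its brightest tested probe set. Summed signals use instead the brightest probe set of every gene that has one, tested or not. Alternatives were other normalizations, filters, an offset of 50, variance models, array weights, a replicate block, leaving out each array, a covariate for the hybridisation controls, averaging the probe sets of a gene and, added after seeing the data, deficient array 3 alone. Promoter windows came from RefSeq (GRCr8).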

Additional observations from a re-analysis of the deposited data

How the results depend on the processing

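No thermogenic probe set passed an adjusted p of 0.05 by limma under 15 of the 17 alternatives. With array weights 2 of 7 did (Ppargc1b and Ucp2), as did 3462 of all 18625 tested probe sets. Leaving out single arrays gave 0 to 2 of 7 thermogenic and 0 to 3614 of 18625 probe sets in all. The upper ends came without deficient array 3. Ppargc1b stayed higher, Ucp2 lower and Cpt1b lower under every alternative in which they were tested. Ppargc1a 1393743_at turned to -0.14 without deficient array 2, -0.25 with the hybridisation covariate and -0.22 with deficient array 3 alone, and 1395518_at to 0.18 without deficient array 1, 0.23 with that covariate and 0.31 with deficient array 3 alone. Prdm16 1396009_at turned to -0.049 with deficient array 3 alone. Prdm16 1397343_at turned to -0.011 without adequate array 2, -0.088 without deficient array 1, -0.16 without deficient array 2, -0.64 with the covariate and -0.69 with deficient array 3 alone. Over single arrays left out, the lowest and highest values were -0.14 and 0.25 for 1393743_at, -0.35 and 0.18 for 1395518_at, and -0.16 and 0.45 for 1397343_at. The thermogenic median of 0.066 was 0.30 with array weights, -0.25 with the covariate, -0.22 with deficient array 3 alone and -0.16 to 0.25 over single arrays left out. The causes were not tested.

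With deficient array 3 alone the list medians were -0.060 for other brown and beige genes, -0.019 for adrenergic signalling, -0.36 for thyroid hormone handling, -0.050 for the carnitine shuttle, 0.19 for UCP1-independent genes and -0.18 for lipid droplet genes. Leaving out single arrays gave -0.12 to 0.051 for PGC-1 and PRDM16 partners, -0.31 to 0.12 for thyroid hormone handling, -0.16 to 0.036 for elongases and -0.57 to -0.21 for lipid droplet genes. With no filter the medians were -0.014 for other brown and beige genes and 0.16 for thyroid hormone handling. Averaging the probe sets of a gene gave -0.0025 for PGC-1 and PRDM16 partners, quantile normalization -0.054 for UCP1-independent genes and array weights -0.30 for lipid droplet genes. The other 131 of 154 list medians moved by less than the spread between arrays. Among the lists, the hybridisation covariate was run for the thermogenic list only, so its effect on the other medians was not examined. Deviations of same-numbered arrays from their group means correlated at 0.11, 0.15 and 0.0066 over probe sets, and 5 of the 6 arrays correlated best with their own number. Deviations within a group are tied to each other, so these correlations cannot decide whether the numbers are pairs. The main fit did not treat them as pairs. The replicate block gave 0 calls among the thermogenic and among all probe sets, 3235 at an unadjusted p under 0.05 against 2647, and an adjusted p of 0.235 for Ppargc1b. With no filter all 14 thermogenic probe sets were tested and the smallest adjusted p was 0.440. Dim signals limit Ucp1, Ucp3, Dio2 and Elovl3 most.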
